A study of Mus musculus with 33 samples.

Results

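The genes described here are 45 enzymes and enzyme subunits of mitochondrial fuel oxidation, listed by name for their textbook roles, with earlier results of these data known. They comprised 20 genes of the tricarboxylic acid (TCA) cycle, 8 genes that control how pyruvate enters it, 14 genes of fatty acid oxidation and the 3 mitochondrial sirtuins. All 45 were found among the 21565 genes of the deposited expression table of mouse frontal cortex.

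Pyruvate from glycolysis enters the mitochondrion and is converted by the pyruvate dehydrogenase complex to acetyl-CoA, which citrate synthase condenses with oxaloacetate to start the TCA cycle. Fatty acids are carried into mitochondria as carnitine esters and are shortened by repeated oxidation to acetyl-CoA. Part of their electrons pass to the respiratory chain through the electron transfer flavoprotein. Neurons rely heavily on glucose, lactate and the cycle for ATP, whereas fatty acid oxidation in brain is slow and is attributed largely to astrocytes.

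The study asked how loss of sleep changes the cortical transcriptome and whether MEF2C, an activity-regulated transcription factor, is needed for it. RNA was sequenced from the frontal cortex of 33 adult male mice of C57BL/6J background, killed at a matched time of day. Wild type (WT) mice had slept ad libitum (CS, control sleep, 6 libraries), had been kept awake for 6 h on a slowly moving treadmill (SD, sleep deprived, 7 libraries) or had been given 2 h of recovery sleep after a deprivation that, by the study's account, was shorter than that of the SD mice (RS, 7 libraries). *Mef2c* f/f mice, which carry loxP sites around 1 exon of *Mef2c* and no Cre, gave 4 CS and 3 SD libraries, and *Mef2c*-cKO mice, which carry the same floxed alleles and a Camk2a-Cre transgene, gave 3 CS and 3 SD libraries. The Cre driver acts in forebrain excitatory neurons after birth, so that the other cells of the tissue keep an intact allele, and only the floxed exon is lost, which a count over the whole gene cannot check. Each library is a separate mouse in the study's description. By the study's account some *Mef2c*-cKO mice also had recombination in the germ line, so that their other tissues carried a deleted allele too. Recovery sleep was analysed here in WT mice alone.

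Values are given as rescaled CPM, which are the deposited CPM (reads of a gene scaled to a common library total) divided by 1 scaling factor per library (the median ratio to the mean library over 11570 genes). Library totals ran from 18935045 to 249046089 reads, no member was at 0 in any library, and the lowest member value rested on 8 reads of *Etfb*. A gene was called changed where limma's test on log2(rescaled CPM + 0.5) gave a p of at most 0.05 after Benjamini-Hochberg adjustment over all genes tested and the log2 fold change was at least 0.3 in size. Errors of fold changes are standard errors. WT CS libraries 1, 2 and 3 stood apart from libraries 4, 5 and 6: the Spearman rho, across genes within a library, between the deviation of a gene from its mean and the GC content of its transcript was -0.52, -0.75 and -0.69 in the former and -0.18, -0.23 and -0.09 in the latter. In the SD libraries this rho ran from 0.015 to 0.78. The RS libraries were split as well, with -0.27, -0.22 and -0.01 in RS libraries 1, 2 and 3 and 0.46 to 0.69 in the other 4. Counts of WT calls, and the values of the members called, are therefore also given with a correction for GC content and transcript length and with libraries 4, 5 and 6 alone as the WT CS group. The WT and *Mef2c* lines differed in the genes counted, since 580 genes with a mean of at least 1 CPM in the 20 WT libraries were at 0 in all 13 libraries of the *Mef2c* line, so levels are compared only within a line. In bulk tissue, fewer cells of a type and less RNA per cell cannot be told apart.

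In resting WT cortex the most abundant members were of the cycle and of pyruvate entry, but levels of the cycle and of fatty acid oxidation overlapped. Per kilobase of transcript, *Mdh1*, the cytosolic malate dehydrogenase, led with 209 rescaled CPM per kb in WT CS. It was followed by *Idh3b* (92.4), a subunit of the NAD-dependent isocitrate dehydrogenase, *Sdha* (90.5), the flavoprotein of succinate dehydrogenase, and *Sucla2* (70.2), the ADP-forming succinyl-CoA synthetase subunit. *Mdh2*, *Pdha1*, *Idh3g*, *Dld*, *Ogdh*, *Pdhb*, *Sdhb*, *Cs* and *Idh3a* followed between 58.9 and 49.9 per kb, steps that were smaller than the spread of these genes between libraries. The 45 members together held 3205 rescaled CPM in WT CS on average, and their sum in single libraries of the series stayed between 3025 and 3895.

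The lowest members were of fatty acid oxidation. Some cycle members were low as well, with *Suclg2* at 6.72, *Aco1* at 9.65 and *Idh2* at 11.1 per kb in WT CS, below *Etfa* and *Hadhb*. *Acads*, the short-chain acyl-CoA dehydrogenase, stood at 0.974 per kb in WT CS, *Acad12*, a less studied acyl-CoA dehydrogenase family member, at 0.591, and *Cpt2*, the inner-membrane carnitine palmitoyltransferase, at 1.18. *Hadhb* at 25.0 and *Hadha* at 12.8 per kb, the subunits of the mitochondrial trifunctional protein, and *Cpt1c*, the neuronal carnitine palmitoyltransferase 1 isoform, at 16.5, stood higher, as did *Acadm*, the medium-chain acyl-CoA dehydrogenase, at 13.5. *Cpt1a*, the isoform that controls fatty acid entry in liver and many other tissues, was lower than *Cpt1c*, at 4.67 per kb. *Etfb*, the beta subunit of the electron transfer flavoprotein, had only 0.333 per kb against 30.4 for its alpha subunit *Etfa*. Of the exon bases of *Etfb* in the GENCODE M21 annotation 58.2% also belong to another gene on the same strand, and reads that fit both genes are not counted by the usual settings of the counter, so its value is uncertain.

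**Figure D1:**
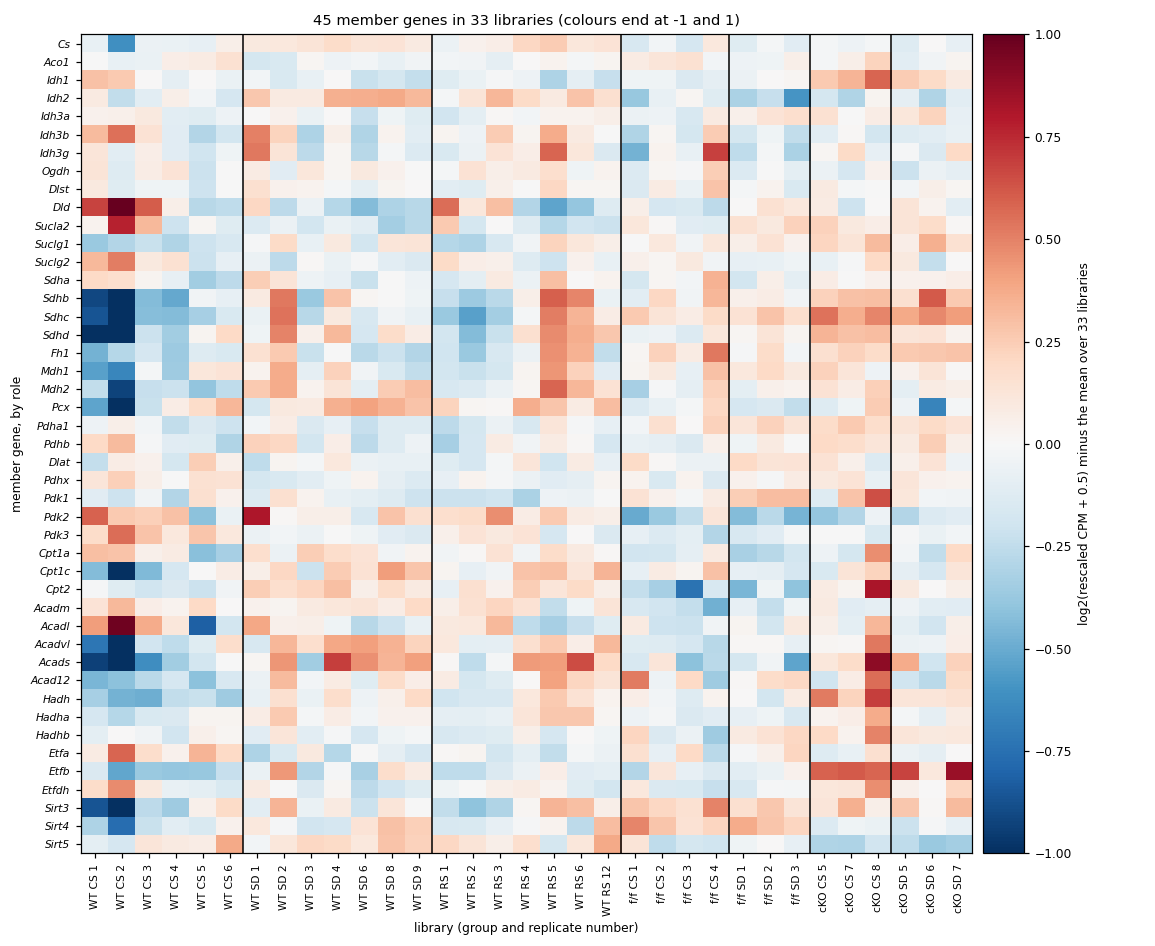
Each member (vertical axis) in each of the 33 libraries (horizontal axis, by group), as the difference of log2(rescaled CPM + 0.5) from the member's own mean over all 33 libraries, with members in order of role. WT CS libraries 1 and 2 are low for *Sdhb*, *Sdhc* and *Sdhd* and high for *Dld*, and no group is shifted as a block across all members.

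The promoter sequences of 6 members are shown because the comparisons turn on these genes: *Sdhb*, *Sdhd*, *Mdh2*, *Acad12* and *Hadh*, which were higher after SD, and *Etfa*, which was lower. Each is the RefSeq window from 250 bases before to 50 bases after the gene's start on build GRCm38.p6, written 5′ to 3′ in the direction of the gene, with matches to the searched motifs in capitals.
Sdhb, chr4:140961021-140961320, plus strand: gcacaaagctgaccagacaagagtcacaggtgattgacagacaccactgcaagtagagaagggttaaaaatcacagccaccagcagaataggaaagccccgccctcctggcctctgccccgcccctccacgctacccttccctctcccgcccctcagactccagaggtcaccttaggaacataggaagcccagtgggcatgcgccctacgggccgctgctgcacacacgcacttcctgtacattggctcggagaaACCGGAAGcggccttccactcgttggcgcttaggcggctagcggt
Sdhd, chr9:50603800-50604099, minus strand: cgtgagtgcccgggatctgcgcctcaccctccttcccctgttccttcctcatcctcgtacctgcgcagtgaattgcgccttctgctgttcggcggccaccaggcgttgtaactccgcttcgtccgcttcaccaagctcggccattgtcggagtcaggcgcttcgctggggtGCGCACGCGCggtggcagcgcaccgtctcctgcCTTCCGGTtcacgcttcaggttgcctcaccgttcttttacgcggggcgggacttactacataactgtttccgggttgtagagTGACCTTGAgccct
Mdh2, chr5:135778399-135778698, plus strand: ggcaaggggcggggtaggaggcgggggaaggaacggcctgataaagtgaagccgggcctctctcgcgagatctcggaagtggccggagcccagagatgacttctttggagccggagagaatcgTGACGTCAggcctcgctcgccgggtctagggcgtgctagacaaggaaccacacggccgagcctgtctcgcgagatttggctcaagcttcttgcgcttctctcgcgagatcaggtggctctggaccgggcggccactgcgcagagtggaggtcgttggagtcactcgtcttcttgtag
Acad12, chr5:121618889-121619188, minus strand: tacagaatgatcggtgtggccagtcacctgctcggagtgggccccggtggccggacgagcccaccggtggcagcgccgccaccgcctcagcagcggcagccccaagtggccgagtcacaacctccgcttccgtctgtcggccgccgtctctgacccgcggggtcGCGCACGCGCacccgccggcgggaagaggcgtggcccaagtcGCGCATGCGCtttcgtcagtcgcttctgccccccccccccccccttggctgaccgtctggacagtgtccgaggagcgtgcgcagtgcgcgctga
Hadh, chr3:131272052-131272351, minus strand: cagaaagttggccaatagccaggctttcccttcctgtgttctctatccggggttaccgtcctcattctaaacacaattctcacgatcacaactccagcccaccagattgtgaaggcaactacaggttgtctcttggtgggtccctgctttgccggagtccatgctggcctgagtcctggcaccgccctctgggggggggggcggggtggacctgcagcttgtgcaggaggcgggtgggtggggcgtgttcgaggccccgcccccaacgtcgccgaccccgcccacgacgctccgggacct
Etfa, chr9:55512194-55512493, minus strand: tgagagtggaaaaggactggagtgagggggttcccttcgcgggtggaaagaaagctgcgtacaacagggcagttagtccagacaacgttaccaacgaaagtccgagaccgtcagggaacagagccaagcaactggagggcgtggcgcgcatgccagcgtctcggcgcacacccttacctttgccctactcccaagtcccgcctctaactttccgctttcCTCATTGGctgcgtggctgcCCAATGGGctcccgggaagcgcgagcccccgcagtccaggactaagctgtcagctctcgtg
The capitals mark an ETS/GABP match in *Sdhb*, matches to NRF1, ETS/GABP and the oestrogen-related receptor element in *Sdhd*, all on the reverse strand, and a cyclic AMP response element in *Mdh2*. *Acad12* holds a pair of NRF1 matches, *Etfa* a CCAAT box in each orientation, and the *Hadh* window holds none of the motifs searched. The matches marked do not overlap each other.

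Over all 43 members that have such a window, and counted on both strands, the NRF1 element was found in 7 members (*Dld*, *Sucla2*, *Sdha*, *Sdhd*, *Acad12*, *Etfb* and *Etfdh*), against 5.19% of the 27018 genes with a window. The ETS/GABP element ACCGGAAG was in 4 members (*Idh3g*, *Dlst*, *Sdhb* and *Sdhd*) against 2.6% of genes, and the cyclic AMP response element TGACGTCA in 2, *Ogdh* and *Mdh2*, against 2.03%. The CCAAT box CCAATNNG was in 8 members against 15.9% of genes, and the E-box CACGTG in 3 against 8.09%. The oestrogen-related receptor element TCAAGGTCA was in 1 member, *Sdhd*, against 126 of the 27018 genes. The MEF2 element was in 0 of the 43 windows, against 3.7% of genes, which says only that these letters are not in these windows. Member windows had a median GC content of 61.3%, against 52.7% for all windows. *Hadha* and *Hadhb* are transcribed head to head from starts 86 bases apart on chromosome 5.

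The comparison of WT CS with SD asked which of these enzymes changed with 6 h of wakefulness. Of 44 members tested, 11 were higher and 3 lower after SD (*Etfb* did not reach the minimum of 1 CPM). Among all 12913 genes tested 24.6% were called higher and 20.5% lower, so 11 and 3 of 44 are near the background for higher calls and below it for lower calls, and the members had a median log2 fold change of 0.06, all genes 0.04. Higher calls fell in succinate dehydrogenase (3 of 4 subunits), the acyl-CoA dehydrogenases (3 of 5), the carnitine palmitoyltransferases (2 of 3), malate dehydrogenase, NADP-dependent isocitrate dehydrogenase and *Hadh*. The 5 members of the pyruvate dehydrogenase and carboxylase group and the 3 sirtuins gave 0 calls by limma, while 1 and 2 of them, respectively, had an unadjusted p of at most 0.05, against 59.5% of genes. Several of these genes were singled out by the study on these same libraries, so their direction here is not independent evidence.

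**Figure D2:**
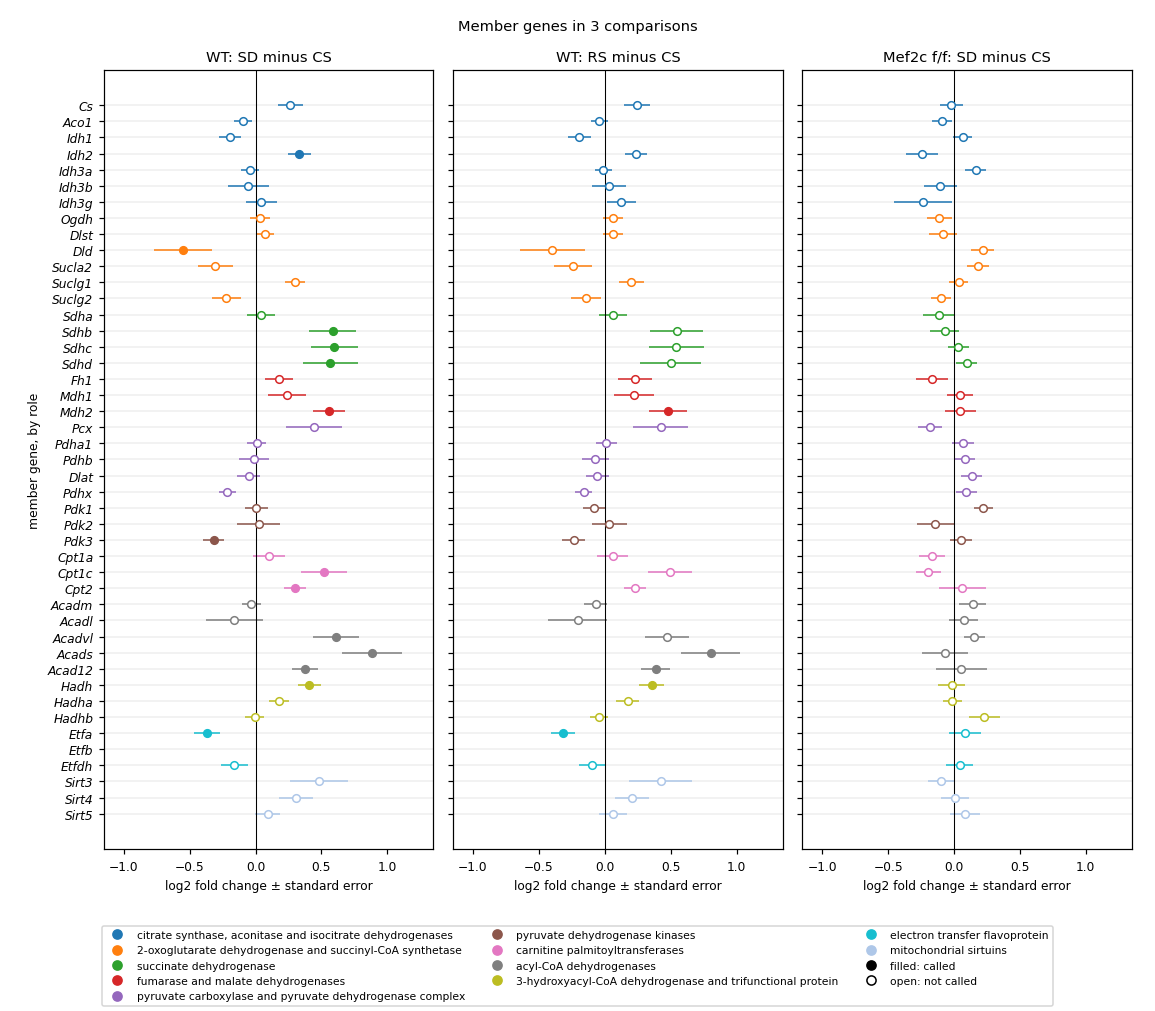
Log2 fold change of each member (horizontal axis, with standard error bars) for WT SD against CS, WT RS against CS and *Mef2c* f/f SD against CS, with members grouped by role on the vertical axis. Filled points passed the test. There are 14 filled points for WT SD, 5 for WT RS and 0 for *Mef2c* f/f.

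At the head of the cycle, the level of *Cs*, citrate synthase, was 106, 154 and 168 (lowest, median and highest) in WT CS and 172, 176 and 184 in SD. Every SD library was above every CS library. The log2 fold change, 0.26 ± 0.09, had an adjusted p of 0.0311 but was below the size required for a call. *Idh2*, the NADP-dependent isocitrate dehydrogenase of the mitochondrion, had 16.9, 19.3 and 21.5 in CS and 21.5, 25.3 and 26.3 in SD. The groups overlapped only at their ends, and *Idh2* rose by 0.33 ± 0.09 (adjusted p = 0.00788). The NADP-dependent enzyme of the cytosol, *Idh1*, had a log2 fold change of -0.19 and did not pass (adjusted p = 0.0667). The ratio per kb of *Idh2* to *Idh1* was 0.573 to 0.913 in the CS libraries and 0.923 to 1.24 in SD, without overlap. This ratio was not corrected for GC content, which is 55.4% in the *Idh2* transcript and 43.8% in that of *Idh1*. The 3 subunits of the NAD-dependent enzyme, *Idh3a*, *Idh3b* and *Idh3g*, lay between -0.05 and 0.04, and the cytosolic aconitase *Aco1* at -0.10.

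In the segment from 2-oxoglutarate to succinate, *Dld*, the dihydrolipoamide dehydrogenase that the pyruvate and 2-oxoglutarate dehydrogenase complexes share, had 82.8, 129 and 245 in CS and 74.3, 83.0 and 116 in SD. The high CS values were libraries 1, 2 and 3, with 161, 245 and 153. *Dld* fell by 0.55 ± 0.22 (adjusted p = 0.0463), a call that was kept in 4 of 13 fits that left out a library each and that ended with CS libraries 4, 5 and 6 alone (log2 fold change -0.04). *Suclg1*, the subunit common to both succinyl-CoA synthetases, was at 0.297 ± 0.08 (adjusted p = 0.00757), just under the size required. *Sucla2* and *Suclg2*, the ADP- and GDP-specific subunits, were at -0.30 and -0.22 and did not pass. *Ogdh* and *Dlst*, the dehydrogenase and the succinyltransferase of the 2-oxoglutarate dehydrogenase complex, were at 0.03 and 0.07.

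Succinate dehydrogenase, which joins the cycle to the respiratory chain as complex II, had 3 of its 4 subunits called, and the difference between subunits was not tested. The catalytic flavoprotein *Sdha* had 212, 264 and 308 in CS and 230, 259 and 318 in SD, with a log2 fold change of 0.04 (adjusted p = 0.754), and CS libraries 4, 5 and 6 were its lowest, at 254, 212 and 224. *Sdhb*, the iron-sulfur subunit, had 37.1, 58.4 and 79.1 in CS and 62.7, 82.4 and 117 in SD. The groups overlapped, and *Sdhb* rose by 0.59 ± 0.18 (adjusted p = 0.0162). *Sdhc*, a membrane anchor, had 20.9, 40.2 and 48.9 in CS and 44.8, 51.8 and 79.5 in SD and rose by 0.60 ± 0.18 (adjusted p = 0.0149). *Sdhd*, the other anchor, had 22.1, 44.7 and 62.5 in CS and 48.4, 57.4 and 76.8 in SD and rose by 0.57 ± 0.21 (adjusted p = 0.0366). For all 3 the lowest CS values were libraries 1 and 2 (*Sdhb* 43.0 and 37.1, *Sdhc* 29.6 and 20.9, *Sdhd* 26.7 and 22.1). With CS libraries 4, 5 and 6 alone the 3 log2 fold changes were 0.28, 0.31 and 0.17 and none passed.

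After succinate, *Mdh2*, the mitochondrial malate dehydrogenase, had 57.5, 92.4 and 94.7 in CS and 103, 131 and 142 in SD. No CS library reached the lowest SD library, and *Mdh2* rose by 0.56 ± 0.12 (adjusted p = 0.00333). With CS libraries 4, 5 and 6 alone it rose by 0.47 (adjusted p = 0.0112). Its cytosolic counterpart *Mdh1* had 321, 447 and 554 in CS and 427, 493 and 652 in SD, overlapping groups with a log2 fold change of 0.24 (adjusted p = 0.177). *Fh1*, fumarase, was at 0.18 and did not pass (adjusted p = 0.164).

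**Figure D3:**
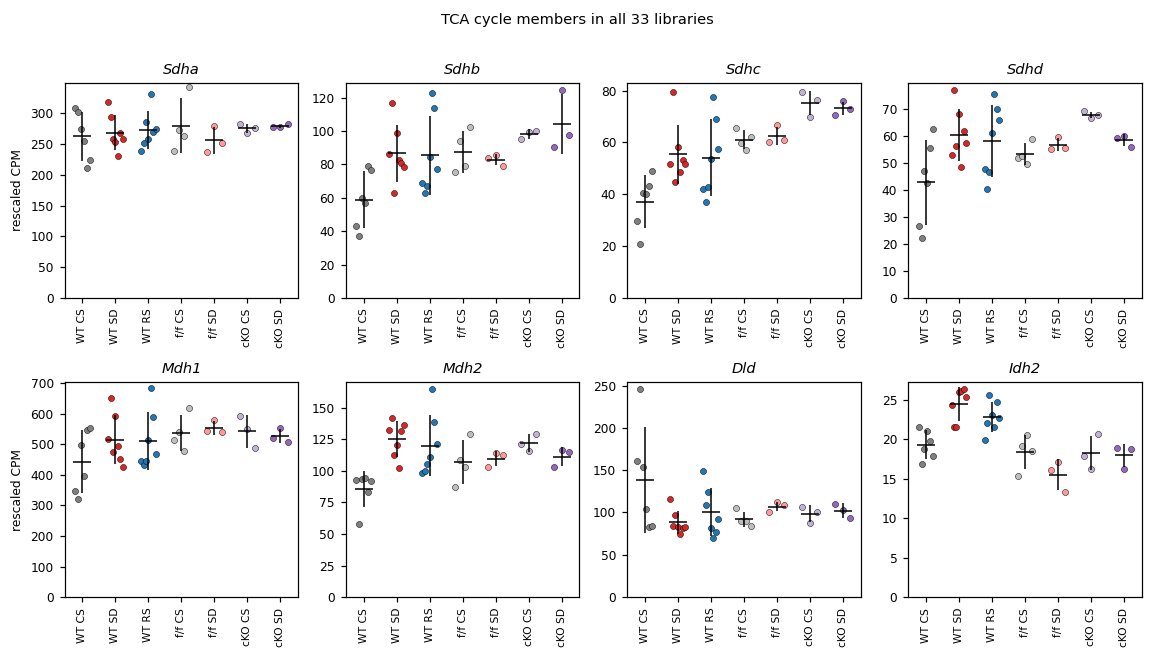
Rescaled CPM in each library (points, with group means and standard deviations) for members of the TCA cycle in all 7 groups. *Mdh2* in WT SD lies wholly above WT CS, whereas the WT CS points of *Sdhb*, *Sdhc*, *Sdhd* and *Dld* are spread widely.

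At the entry of pyruvate, *Pdha1* and *Pdhb*, the subunits of the decarboxylase of the pyruvate dehydrogenase complex, and *Dlat*, its acetyltransferase, lay between -0.05 and 0.01 after SD. *Pdhx*, the binding protein of the complex, was at -0.21 (adjusted p = 0.0167), below the size required. *Pcx*, the pyruvate carboxylase that refills the cycle and that is mainly astrocytic in brain, was at 0.44 and did not pass (adjusted p = 0.0901). The kinases that switch the complex off differed among themselves, with *Pdk1* at 0.01 and *Pdk2* at 0.02. *Pdk3* had 41.2, 45.1 and 56.7 in CS and 34.5, 36.8 and 38.2 in SD, groups that did not overlap. It fell by 0.32 ± 0.08 (adjusted p = 0.00727) and was at -0.23 with CS libraries 4, 5 and 6 alone (adjusted p = 0.0519), where it was no longer called.

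Among the carnitine palmitoyltransferases, listed here under fatty acid oxidation, *Cpt2* had 2.60, 2.77 and 3.06 in CS and 3.24, 3.57 and 3.93 in SD. The groups did not overlap, and *Cpt2* rose by 0.30 ± 0.08 (adjusted p = 0.0106), at the limit of size and lost in 6 of 13 fits without a library. *Cpt1c* had 25.0, 46.5 and 60.2 in CS and 49.2, 65.9 and 76.3 in SD, rose by 0.52 ± 0.17 (adjusted p = 0.0225) and was at 0.19 with CS libraries 4, 5 and 6 alone. *Cpt1a* was at 0.10. Per kb, *Cpt1c* stood above *Cpt1a* in every WT library, with ratios from 1.59 to 6.07. These are transcript levels, and fatty acid entry into mitochondria was not measured.

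The acyl-CoA dehydrogenases, which take the first oxidation step for chains of different length, divided. *Acads* had 0.683, 1.88 and 2.82 in CS and 2.11, 3.92 and 4.86 in SD and rose by 0.89 ± 0.23 (adjusted p = 0.00759), the largest change of a member in this comparison, in overlapping groups. *Acadvl*, the very-long-chain enzyme, had 10.9, 20.2 and 26.7 in CS and 21.1, 29.8 and 31.5 in SD and rose by 0.61 ± 0.17 (adjusted p = 0.0117). Of its exon bases 42.9% lie opposite *Dvl2*. The study describes strand-specific reads, but the counting is not stated to use strand, so it is uncertain whether reads of the pair were kept apart. *Acad12* had 2.02, 2.23 and 2.60 in CS and 2.68, 3.11 and 3.81 in SD, without overlap, and rose by 0.38 ± 0.10 (adjusted p = 0.00906). *Acadm* and *Acadl*, for medium and long chains, were at -0.03 and -0.16 and did not pass. With CS libraries 4, 5 and 6 alone *Acads* was at 0.47 (adjusted p = 0.10), *Acadvl* at 0.31 (adjusted p = 0.104), *Acad12* at 0.31 (adjusted p = 0.0945) and *Cpt2* at 0.31 (adjusted p = 0.0525), and none of the 4 passed. The ratio per kb of *Acads* to *Acadm* was 0.0237 to 0.122 in CS and 0.0863 to 0.195 in SD. It was not corrected for the GC content of the 2 transcripts, 60.1% and 48.0%.

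*Hadh*, the 3-hydroxyacyl-CoA dehydrogenase for short and medium chains, was the member whose call was kept most widely. Its level was 8.23, 9.12 and 9.98 in CS and 11.1, 12.2 and 13.5 in SD, with every SD library above every CS library. It rose by 0.41 ± 0.09 (adjusted p = 0.00302), was called in 13 of 13 fits without a library and in 12 of 14 alternatives, and rose by 0.33 with CS libraries 4, 5 and 6 alone (adjusted p = 0.0363). The trifunctional protein, which serves longer chains, had log2 fold changes of 0.18 for *Hadha* (adjusted p = 0.0577) and -0.01 for *Hadhb*. Per kb, the ratio of *Hadha* to *Hadhb* was 0.439 to 0.554 in CS and 0.559 to 0.613 in SD, and the GC content of their transcripts is 51.3% and 45.4%.

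Electrons from the acyl-CoA dehydrogenases pass to the electron transfer flavoprotein. Its subunit *Etfa* had 36.7, 40.6 and 53.4 in CS and 28.7, 31.9 and 38.1 in SD. The groups overlapped slightly, and *Etfa* fell by 0.37 ± 0.10 (adjusted p = 0.00955). It was at -0.33 with CS libraries 4, 5 and 6 alone (adjusted p = 0.0458). *Etfdh*, which hands the electrons to ubiquinone, was at -0.16 and did not pass. *Etfb*, not tested, was 0.200 to 0.408 in CS and 0.305 to 0.859 in SD. The sirtuins, mitochondrial deacylases of these enzymes, were at 0.48 for *Sirt3* (adjusted p = 0.0783), 0.31 for *Sirt4* (adjusted p = 0.056) and 0.09 for *Sirt5*. Of the exon bases of *Sirt3* 12.7% lie opposite other genes.

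**Figure D4:**
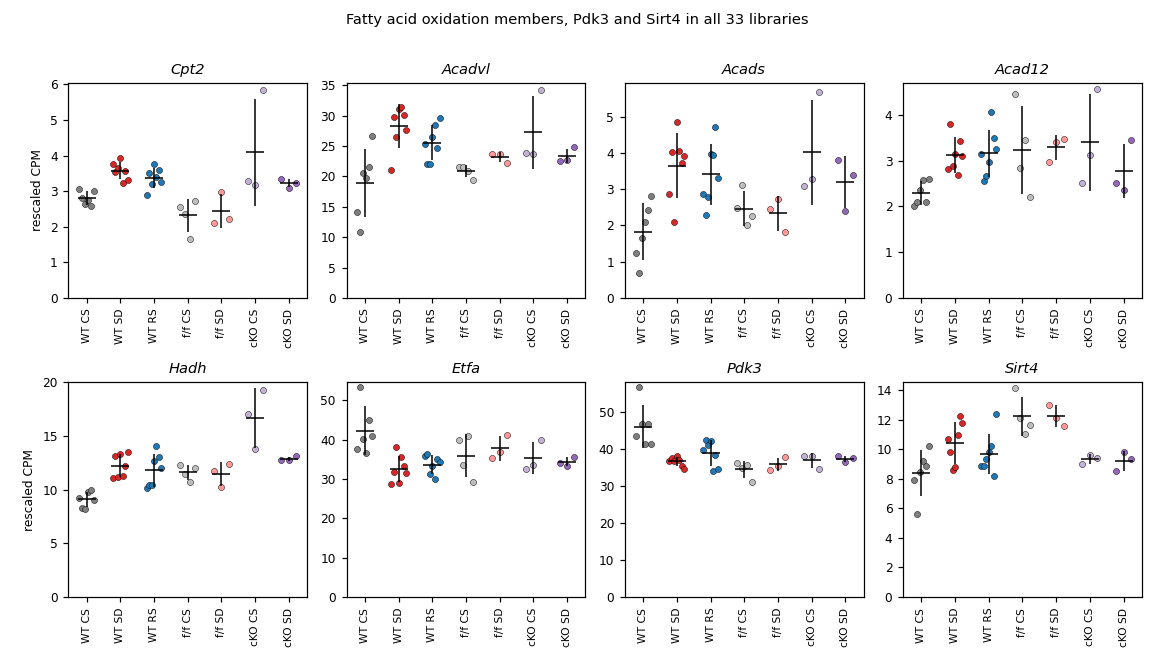
Rescaled CPM in each library (points, with group means and standard deviations) for members of fatty acid oxidation, *Pdk3* and *Sirt4* in all 7 groups. *Hadh* and *Acad12* in WT SD lie wholly above WT CS, *Pdk3* wholly below, and *Sirt4* in *Mef2c*-cKO lies below *Mef2c* f/f in both sleep states.

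Of the 44 members, 5 had every SD library above every CS library (*Cs*, *Mdh2*, *Cpt2*, *Acad12* and *Hadh*) and 1 had every SD library below (*Pdk3*), against 4.68% and 10.4% of all genes tested. The fold change followed base composition. The Spearman rho between log2 fold change and transcript GC content was 0.73 across 12460 genes and 0.74 across the 44 members, and genes are not independent replicates. With values corrected for GC content and length, 5 members were called higher (*Sdhc* 0.70, *Acadvl* 0.43, *Hadh* 0.39, *Acads* 0.37 and *Fh1* 0.32) and 0 lower by limma, against 13.6% and 7.95% of genes. An unadjusted p of at most 0.05 was then given by 17 members and by 5425 of the 12460 genes. *Mdh2* was then at 0.22, *Sdhb* at 0.21, *Idh2* at 0.04, *Dld* at -0.14 and *Etfa* at -0.19. *Sdhd* was at 0.52 (adjusted p = 0.0726), *Cpt2* and *Acad12* at 0.19 each, *Cpt1c* at 0.13 and *Pdk3* at -0.17, and none of these was called. With CS libraries 4, 5 and 6 alone, 3 of 44 members (*Idh2*, *Mdh2* and *Hadh*) were higher and 1 (*Etfa*) lower. Of all 12940 genes tested, 867 (6.7%) were then called higher and 1437 lower. *Hadh* was the only member called higher with each of these changes, and its call ended under quantile normalization and with a replicate block. On CPM as deposited the median of all genes moved to 0.30, and 25 members were called higher and 0 lower, among 6106 genes called higher and 801 lower.

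**Figure D5:**
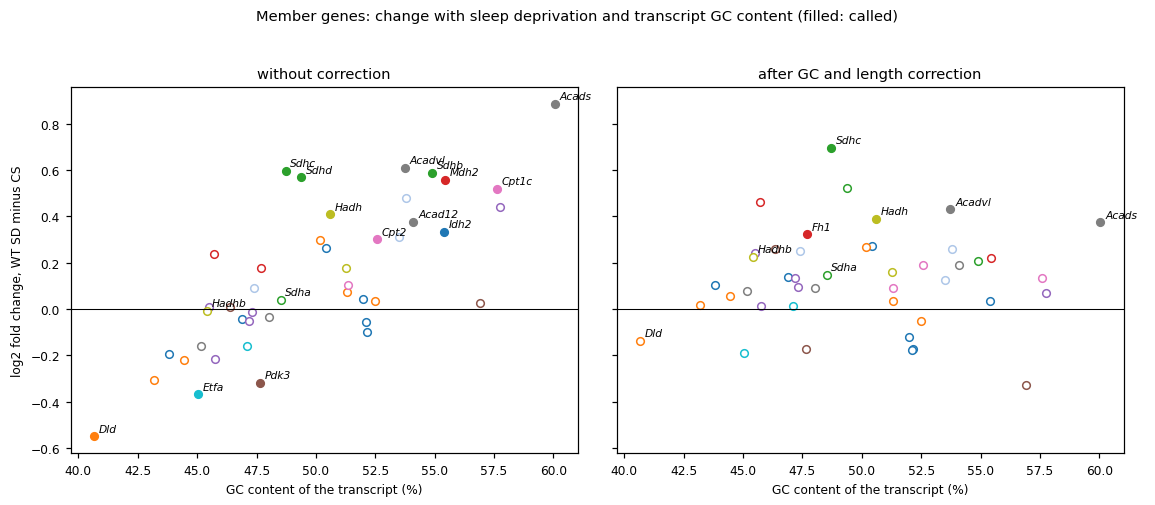
Log2 fold change from WT CS to SD (vertical axis) against the GC content of the transcript in percent (horizontal axis) for the 44 members (filled where called, coloured by role), without and with the correction for GC content and length. Before correction the points rise from left to right (rho 0.74), and 5 members are called after it.

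Markers of blood and meninges also moved in this comparison. All 5 tested red blood cell genes were higher after SD, their summed level running from 28.3 to 118 in CS and from 98 to 286 in SD, and *Slc4a1*, of the same list, was at 0 in 3 libraries of the series. Of 9 tested meningeal fibroblast genes 5 were higher and 1 lower, with sums of 27.1 to 84.8 and 73.1 to 107, and *Igf2* of this list was at 0 in 19 libraries. Of 12 astrocyte genes 4 were higher and 1 lower, with sums of 3839 to 5581 in CS and 3467 to 4508 in SD. The part of these cells in the members' changes was not tested.

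After recovery sleep 4 members were higher and 1 lower than in CS, against 9.28% and 8.22% of 12752 genes tested. This comparison shares the CS libraries with the one before, so the values are given side by side and are not a second line of evidence. *Mdh2* had 98.4, 111 and 165 in RS, above all CS libraries, and rose by 0.48 ± 0.14 (adjusted p = 0.0403). *Hadh* had 10.1, 12 and 14.1, also above all CS libraries, and rose by 0.36 ± 0.10 (adjusted p = 0.0362). *Acad12* with 2.55, 3.15 and 4.06 rose by 0.39 ± 0.11 (adjusted p = 0.0386), and *Acads* with 2.29, 3.32 and 4.72 rose by 0.80 ± 0.22 (adjusted p = 0.0371), both overlapping CS. *Etfa* had 29.9, 34.2 and 36.3, below all CS libraries, and fell by 0.32 ± 0.09 (adjusted p = 0.0391). The share of all genes without overlap was 1.7% higher and 2.02% lower.

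The other members that were called after SD had values of the same sign in RS that did not pass. These were *Sdhb* at 0.55, *Sdhc* at 0.54, *Sdhd* at 0.50, *Cpt1c* at 0.49, *Acadvl* at 0.47, *Idh2* at 0.23 and *Cpt2* at 0.23, with *Dld* at -0.40 and *Pdk3* at -0.24. Corrected for GC content and length, *Hadh* alone was called (0.35), against 2.14% of genes higher and 2% lower. With CS libraries 4, 5 and 6 alone limma called 0 members and 0 genes in all, with an unadjusted p of at most 0.05 for 9 members and 2538 genes, while the RS group still held the libraries split in their rho with GC content. Leaving out CS library 1, 2 or 3, or any of 5 RS libraries, ended the calls of *Mdh2*, *Acads*, *Acad12* and *Hadh*, in fits that called 0 to 223 of all genes. Without a library each, the log2 fold change of *Mdh2* ran from 0.37 to 0.52 and that of *Hadh* from 0.31 to 0.39. Red blood cell genes were higher here too (3 of 5), with sums of 85.4 to 139 in RS, and their part was not tested.

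SD and RS were compared directly, without the CS libraries. The 2 groups differed in the length of deprivation as well as in recovery sleep. None of the 44 members was called by limma, edgeR or DESeq2, and 0 had an unadjusted p of at most 0.05, against 0.0232% of 12921 genes called by limma and 5.29% with such an unadjusted p. DESeq2 called 54 of these genes. Log2 fold changes lay between -0.14 (*Acadvl*) and 0.15 (*Dld*), with standard errors of 0.05 to 0.16. *Acadvl* and *Dld* had themselves been called from CS to SD. Values of some other members called there follow. *Acads* differed by -0.08 ± 0.16, *Mdh2* by -0.08 ± 0.11, *Hadh* by -0.05 ± 0.09, *Etfa* by 0.05 ± 0.07 and *Pdk3* by 0.08 ± 0.06. A difference of the size of a standard error was not detectable with these libraries, so these values do not show that the levels were equal.

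In *Mef2c* f/f mice, the floxed controls, 0 of 44 members were called between CS and SD by limma, edgeR or DESeq2, against 0.0403% of 12410 genes by limma and 9 and 467 genes by edgeR and DESeq2. Unadjusted p-values of at most 0.05 were given by 3 members (*Pdk1* at 0.22, *Dld* at 0.22 and *Sucla2* at 0.18), against 17% of genes. *Mdh2* was 87.1, 109, 103 and 129 in the 4 CS libraries and 103, 114 and 112 in the 3 SD libraries. *Hadh* was 12.3, 11.5, 10.7 and 12 in CS and 11.8, 10.3 and 12.4 in SD. For both genes the SD values lay within or close to the range of CS, with log2 fold changes of 0.05 ± 0.12 and -0.02 ± 0.10. *Pdk1* had 72.0, 67.0, 64.4 and 68.8 in CS and 77.1, 80.6 and 80.8 in SD, higher without overlap (8.53% of genes). *Acadvl* was also higher without overlap (19.4 to 21.6 in CS, 22.3 to 23.8 in SD). *Cpt1c* (53.9 to 70.25 in CS, 50.7 to 53.8 in SD) and *Suclg2* (19.8 to 21.8 and 19.2 to 19.7) were lower without overlap, by narrow gaps. The rho with GC content was -0.62 across the 44 members and -0.32 across 12408 genes, both opposite in sign to those in WT.

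The difference between the CS to SD change in *Mef2c* f/f and that in WT was tested as an interaction, called on the adjusted p alone. It passed for 4 members, against 9.35% of 13106 genes more positive and 5.78% more negative in *Mef2c* f/f. *Idh2* (-0.57 ± 0.15, adjusted p = 0.0261) and *Hadh* (-0.43 ± 0.13, adjusted p = 0.0407) were more negative in *Mef2c* f/f, where *Idh2* was 15.4, 19.1, 20.5 and 18.5 in CS and 16.1, 17.1 and 13.3 in SD. *Pdk3* (0.37 ± 0.12, adjusted p = 0.0459) and *Pdhx* (0.31 ± 0.10, adjusted p = 0.0469) were more positive. *Pdk3* in *Mef2c* f/f was 36.2, 34.7, 35.7 and 31.1 in CS and 34.2, 35.3 and 37.8 in SD. The interaction values followed GC content with a rho of -0.77 over all genes and -0.83 over the members. After the correction, and with WT CS libraries 4, 5 and 6 alone, 0 of the 4 passed by limma, and 6 and 8 members, respectively, had an unadjusted p of at most 0.05. Of all genes 0.917% were then called higher and 0.743% lower after the correction. The 2 lines may have been counted against different gene sets, and these interaction values carry that doubt.

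In *Mef2c*-cKO mice, which lack the floxed exon in excitatory neurons, 0 of 45 members were called between CS and SD by limma, edgeR or DESeq2, against 0.0234% of 12810 genes by limma and 3 and 25 genes by edgeR and DESeq2. Of the members 10 had a log2 fold change above 0, against 48.2% of genes, with a median of -0.05. This count was 16 after the GC content and length correction, 17 with a replicate block (median -0.020) and 22 with both (median -0.016). *Sdhd* (69.0, 66.6 and 67.5 in CS, 59.3, 59.7 and 55.7 in SD) and *Hadh* (17.0, 13.8 and 19.3 in CS, 12.8, 12.8 and 13.1 in SD) had unadjusted p-values of at most 0.05, against 3.05% of genes. Their log2 fold changes were -0.22 ± 0.07 and -0.35 ± 0.13, with no overlap of the groups (4.56% of genes). *Mdh2* was 122, 116 and 129 in CS and 103, 116 and 115 in SD. The interaction of sleep state with genotype between *Mef2c*-cKO and *Mef2c* f/f gave 0 calls among the members by limma, with 3 unadjusted, against 0.00778% of genes called and 7.81% unadjusted.

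*Mef2c*-cKO and *Mef2c* f/f were then compared within each sleep state. In CS, 2 of 45 members were higher and 0 lower, against 3.17% and 4.5% of 12681 genes. *Idh1* was 31.4, 31.4, 29.2 and 30.4 in *Mef2c* f/f and 38.8, 41.0 and 48.8 in *Mef2c*-cKO, higher by 0.47 ± 0.10 (adjusted p = 0.0258). *Sdhd* was 51.8, 52.3, 49.5 and 58.9 in *Mef2c* f/f and 69.0, 66.6 and 67.5 in *Mef2c*-cKO, higher by 0.35 ± 0.08 (adjusted p = 0.0406). Neither pair of groups overlapped. *Idh1* was called in 3 of 7 fits that left out a library each and *Sdhd* in 1 of 7. Both were called by edgeR and DESeq2 on the recovered reads, and corrected for GC content and length *Idh1* was called at 0.38 whereas *Sdhd*, at 0.26, was not.

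Among the 45 members, 12 had every *Mef2c*-cKO CS library above every *Mef2c* f/f CS library and 1 below, against 13.4% and 13.5% of genes. The 12 were *Idh1*, *Suclg1*, *Sdhc*, *Sdhd* and *Pdhb* of the cycle and its entry, and *Cpt2*, *Acadm*, *Acadvl*, *Hadh*, *Hadha*, *Etfb* and *Etfdh* of fatty acid oxidation. *Cpt2* was 2.55, 2.35, 1.65 and 2.71 in *Mef2c* f/f and 3.29, 3.16 and 5.83 in *Mef2c*-cKO (log2 fold change 0.67 ± 0.24). *Hadh* was at 0.49 ± 0.13 and missed the threshold (adjusted p = 0.051). The median over the members was 0.11, against 0.03 over all genes. *Mef2c*-cKO CS library 8 was the highest of its 3 for 24 of the 45 members, among them *Cpt2*, *Acads* (5.69 against 3.09 and 3.28), *Acadvl* (34.3 against 23.9 and 23.7) and *Pdk1* (102 against 59.6 and 79.3). Its summed microglia markers were 700 against 231 and 280 in the other *Mef2c*-cKO CS libraries and 190 to 225 in *Mef2c* f/f CS, where 0 of 12 microglia genes were called by limma and 6 had an unadjusted p of at most 0.05. *Itgam* of this list was at 0 in 10 libraries of the series. The summed astrocyte markers of library 8 were 6127 against 4168 and 4675, and 4496 to 4860 in *Mef2c* f/f CS, with 1 of 12 astrocyte genes higher. Of other lists 4 of 13 oligodendrocyte genes were higher, with sums of 2589 to 3338 in *Mef2c*-cKO and 2115 to 2490 in *Mef2c* f/f, 3 of 10 meningeal fibroblast genes were higher (79.0 to 112 against 73.2 to 81.3), and 2 of 5 red blood cell genes were lower (10.7 to 108 against 123 to 183). The part of these cells in the members' values was not tested, and without library 8 the log2 fold change of *Idh1* was 0.38 and that of *Sdhd* 0.35, with adjusted p-values of 0.0566 and 0.0801.

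In SD, 1 of 44 members was lower in *Mef2c*-cKO and 0 were higher, against 5.99% lower and 9.1% higher of 12774 genes. *Sirt4*, the mitochondrial ADP-ribosyltransferase and lipoamidase that restrains pyruvate dehydrogenase and fatty acid oxidation, was 13.0, 12.1 and 11.6 in *Mef2c* f/f and 8.49, 9.82 and 9.32 in *Mef2c*-cKO, lower by a log2 fold change of -0.39 ± 0.10 (adjusted p = 0.0267). In CS it was 14.1, 12.1, 11.0 and 11.6 against 8.99, 9.62 and 9.43, a log2 fold change of -0.36 ± 0.12 that missed the threshold (adjusted p = 0.083). In both sleep states every *Mef2c*-cKO library was below every *Mef2c* f/f library. The call in SD was lost in 5 of 6 fits without a library and on CPM as deposited (adjusted p = 0.0545). *Pdk1* was 77.1, 80.6 and 80.8 in *Mef2c* f/f and 70.3, 63.8 and 63.5 in *Mef2c*-cKO SD, at -0.27 ± 0.07 (adjusted p = 0.0269) and below the size required. Groups did not overlap for 7 members that were higher (*Idh1*, *Sdhb*, *Sdhc*, *Fh1*, *Cpt2*, *Hadh* and *Etfdh*) and 3 that were lower (*Pdk1*, *Sirt4* and *Sirt5*), against 21.6% and 18.7% of genes. In this comparison 7 of 12 inhibitory neuron genes were higher and 3 lower, with sums of 1080 to 1143 in *Mef2c*-cKO and 820.3 to 921 in *Mef2c* f/f. Of the microglia genes 7 of 12 were higher and 5 of 12 excitatory neuron genes lower, with sums of 269 to 298 and 2373 to 2616 in *Mef2c*-cKO against 209 to 221 and 2962 to 3137 in *Mef2c* f/f. Their part in the members' values was not tested.

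The other genes of these pathways, listed by name in the same way, moved in both directions from WT CS to SD, where 24.6% of all genes were higher and 20.5% lower. Of 25 further genes of the cycle, its refilling reactions and its shuttles 9 were higher and 4 lower, among them *Slc25a10*, the dicarboxylate carrier (0.76), *Ogdhl*, the brain-enriched form of 2-oxoglutarate dehydrogenase (0.66), and *Me3*, a mitochondrial malic enzyme (-0.45). Corrected for base composition, 2 of these 13 were called, *Ogdhl* (0.42) and *Gpt2*, alanine aminotransferase 2 (0.45), with *Slc25a10* at 0.24 and *Me3* at -0.25. Of 12 genes around pyruvate 2 were higher, *Pck2*, the mitochondrial phosphoenolpyruvate carboxykinase (0.67), and *Ldha*, lactate dehydrogenase A (0.53). With the correction *Pck2* was called at 0.68 and *Ldha*, at 0.46, was not. Of 22 tested genes of mitochondrial fatty acid oxidation 2 were higher and 2 lower, with *Ivd*, isovaleryl-CoA dehydrogenase, at 0.32 and *Acsl4*, which activates long polyunsaturated chains, at -0.59. With the correction *Ivd* was called at 0.30 and *Acsl4* was at -0.06. Of 10 peroxisomal genes 1 was higher (*Acaa1a*, a thiolase, 0.81) and 1 lower (*Abcd2*, a transporter, -0.50), at 0.32 and -0.06 with the correction and then not called. Of 21 genes of branched-chain amino acid, propionate and ketone body metabolism 5 were higher and 5 lower, with *Bckdha*, a subunit of the branched-chain keto acid dehydrogenase, at 0.72 and *Pcca*, a propionyl-CoA carboxylase subunit, at -0.62. With the correction *Pcca* was called at -0.43 and *Bckdha*, at 0.31, was not. After it 3 genes around pyruvate, 3 of mitochondrial and 1 of peroxisomal fatty acid oxidation, and 2 of the last list were called higher and 3 of the last list lower, against 13.6% and 7.95% of genes.

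Of 18 transcriptional regulators of these genes 3 were higher and 7 lower in the same comparison. *Pparg*, a nuclear receptor of lipid metabolism, fell by 0.98 ± 0.14 (adjusted p = 0.000456) with no overlap of the groups, and was at -0.96 when corrected for GC content and length. Its change differed between *Mef2c* f/f and WT, by an interaction of 1.03 ± 0.24 (adjusted p = 0.0208), and 1.03 after the correction. *Esrrg*, the oestrogen-related receptor gamma, fell by 0.67 ± 0.17 (adjusted p = 0.00812), and *Esrra*, the oestrogen-related receptor alpha, rose by 0.95 ± 0.28 (adjusted p = 0.0133), but corrected for base composition and length these stood at -0.27 and 0.38 and were not called. Chosen after their values were seen, 3 regulators are named for the other comparisons. *Pparg* was also lower in RS than in CS (-0.96 ± 0.18) and lower in *Mef2c*-cKO than in *Mef2c* f/f, by -0.70 ± 0.17 in CS and -0.73 ± 0.14 in SD. *Ppargc1b*, the coactivator PGC-1beta, and *Nrf1*, whose motif is described above, were lower in *Mef2c*-cKO CS (-0.62 ± 0.11 and -0.41 ± 0.09).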

How the data were processed

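Poly(A) RNA of frontal cortex was sequenced, by the study's account from stranded libraries that give strand-specific reads. Per the study, the authors filtered reads with Trimmomatic, mapped them with STAR (mm10), took unique reads per gene with HTSeq and deposited CPM values, not raw counts. The strand setting of the counting is not given in the sources used here. Dividing by the step of 1 read gave whole reads, within 0.01, for 100% of 711645 values. Each library's CPM were rescaled by a median-of-ratios factor and tested in R 4.3.3 with limma 3.58.1 (lmFit, eBayes with trend) on log2(rescaled CPM + 0.5), using the compared groups only and genes of at least 1 CPM in every library of a compared group. The thresholds are the study's. GC content, length, position and exon overlap came from GENCODE M21, which matched 19256 symbols and 241 synonyms of 21565 genes. The GC content and length correction removed from each library a natural spline (degrees of freedom: 5 and 4). The procedure was tested on simulated data. As alternatives, edgeR 4.0.16 and DESeq2 1.42.0 were run on the recovered reads (5701 and 6048 genes called from WT CS to SD), and limma was run with a pseudocount of 0.1 or 1, on unscaled or quantile-normalized values, without a filter, with a minimum of 5 CPM, with array weights, over all groups, with a replicate block and without each library in turn. Groups came from the sample labels. All members are reported, in order of role. Genes outside the module are among the 3 largest rises or 3 largest falls called in their list from WT CS to SD, unless said otherwise. *Gpt2* was not among these and is named because it was called after the GC content and length correction. The members and lists were chosen with earlier results of these data known.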

Additional observations from a re-analysis of the deposited data

Results flagged for a closer look

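Of 180 groups of member values tested for a library far from the rest by Dixon's 95% limit, 7 had one, and chance gives about 1 in 20. WT CS library 2 was low for *Cs* (105.6 rescaled CPM) and *Mdh2* (57.5) and high for *Pdk3* (56.7). WT SD library 2 was high for *Sdhc* (79.5) and *Hadha* (66.5), WT SD library 1 for *Pdk2* (61.8) and WT RS library 5 for *Idh3g* (120.4).

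The change from CS to SD differed between *Mef2c* f/f and WT, by limma's interaction term, for *Idh2* (-0.57), *Hadh* (-0.43), *Pdk3* (0.37) and *Pdhx* (0.31). These differences passed in 16, 9, 6 and 8, respectively, of 20 fits that left out a library each.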

How the results depend on the processing

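From WT CS to SD 14 members were called. Numbers in brackets are calls over all genes tested under the same setting, and shares for the main fits are given above. The count was 25 on CPM as deposited (6907) and 5 after the GC content and length correction (2690). It was 0 with a replicate block (287 of 12913 genes) and 1 with the replicate block and that correction (1046). It was 4 with WT CS libraries 4, 5 and 6 alone (2304), an alternative chosen after seeing the data. It was 9 to 20 without a library each (4509 to 6411). From WT CS to RS 5 were called. The count was 9 on CPM as deposited (2665), 3 after quantile normalization (1723) and 0 without a filter (385). It was 8 by DESeq2 (3420), 9 in a fit over all groups (4018) and 1 after the GC content and length correction (509). It was 12 with the replicate block (4279 of 12752 genes), 0 with WT CS libraries 4, 5 and 6 alone (0), and 0 to 9 without a library (0 to 3740). For *Mef2c*-cKO against *Mef2c* f/f in CS, 2 were called. The count was 4 on CPM as deposited (1228), 4 by edgeR (1067) and 5 by DESeq2 (2095). It was 8 over all groups (2167), 5 with array weights (3402) and 0 to 2 without a library (171 to 875). In SD, 1 was called. The count was 2 after quantile normalization (1428), 2 by DESeq2 (2291), 3 with array weights (2972) and 0 to 4 without a library (822 to 2447). The *Mef2c*-cKO interaction rose from 0 to 1 with array weights (315) and stayed at 0 without a library. For the interaction of *Mef2c* f/f and WT, 4 were called. The count was 13 on CPM as deposited (3426), 2 after quantile normalization (1397), 7 by DESeq2 (2774) and 8 over all groups (3019). With array weights it was 23 (7486 of 13106 genes). It was 0 after the GC content and length correction (210), with the replicate block (0) and with both (0). It was also 0 with WT CS libraries 4, 5 and 6 alone (530), and 0 to 9 without a library (23 to 3300). The cause was not tested. The counts for SD to RS and for CS to SD in both *Mef2c* lines were 0 under every alternative. Signs turned only in medians near 0, for SD to RS without WT RS library 1 (0.0018) or 2 (0.012), in a range of -0.031 to 0.012 without a library, and for *Mef2c* f/f without CS library 3 (-0.0021), in a range of -0.0021 to 0.055. The sample labels do not say whether replicate numbers pair the mice, and the correlations of same-numbered libraries do not settle it. In WT they ran from -0.33 to 0.55 between CS and SD. Between CS and RS they ran from 0.068 to 0.67, where 5 of 6 were over 0.1. Between CS and SD they ran from 0.047 to 0.26 in *Mef2c* f/f and were 0.069 and 0.15 in *Mef2c*-cKO. No replicate block was run for *Mef2c*-cKO against *Mef2c* f/f, which share no numbers. *Etfb*, *Acads*, *Acad12* and *Cpt2* lie near the 1 CPM minimum, where counting limits precision.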
